A study of Saccharomyces cerevisiae with 12 samples.

Results

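Yeast builds leucine, valine and isoleucine, the branched-chain amino acids, along a shared mitochondrial route and a leucine branch. Acetolactate synthase, made of the catalytic subunit Ilv2 and the regulatory subunit Ilv6, opens the shared route, and the reductoisomerase Ilv5 and the dehydratase Ilv3 continue it. Leu4 and Leu9, isopropylmalate synthases, start the leucine branch, which passes through the isomerase Leu1 and the dehydrogenase Leu2. The transaminases Bat1, in mitochondria, and Bat2, in the cytosol, carry out the last step. Leu3, which senses the leucine intermediate isopropylmalate, and Gcn4, the activator of the general amino acid response, are known regulators of many of these genes. A strain without working LEU2 cannot finish leucine and takes it from the medium.

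The 10 genes of this route (LEU1, LEU2, LEU4, LEU9, ILV2, ILV3, ILV5, ILV6, BAT1 and BAT2) were chosen by gene symbol among 5449 measured genes of Saccharomyces cerevisiae. They were singled out because the LEU2 probe set read higher in the medium with ethanol in a strain that lacks working LEU2, so the medium responses of the 10 genes are given below as a description, with no test. All 10 of 10 were measured, each by 1 probe set with no mark of a shared sequence. The genes lie on 8 chromosomes. Only LEU2 and ILV6 are near each other, on chromosome III with 6 annotated genes between them.

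The cells were BY4741, a haploid strain of mating type a, widely used in laboratories, that lacks working HIS3, LEU2, MET17 and URA3. They carried the plasmid p416-Tefmut2, whose p416 backbone bears URA3, with either SPT15, which encodes TATA-binding protein (here the wild type), or its mutant spt15-300 (here the mutant). All cultures grew in YSC -URA medium at 30 °C in closed, shaken tubes to an OD of about 0.4. Each strain had 3 cultures with 0% ethanol and 20 g/L glucose and 3 with 5% ethanol and 60 g/L glucose, so ethanol and glucose changed together and cannot be told apart. The second medium is called the ethanol medium. The labels do not say what remained of the chromosomal SPT15.

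Of the 12 arrays, 11 were used. The array of mutant replicate 2 in the ethanol medium is titled an outlier and correlated with its group at 0.781 over all genes, against 0.993 or more for the others, so that group rests on 2 arrays. Values are log2 intensities, comparable across arrays for a given gene but not between genes. Array medians lay between 10.46 and 10.52. The median 3' minus 5' difference of 8 control genes, which tracks RNA quality, was 0.310 to 0.359 in the wild type and 0.240 to 0.266 in the mutant without ethanol, and 0.361 to 0.435 and 0.379 to 0.400 in the ethanol medium. All 7 of 7 markers of a cells lay above the 95th percentile of the array's Schizosaccharomyces pombe probe sets, which served as background, on every array used. Their mean level also differed between groups, at 12.10 to 12.14 in the wild type and 11.73 to 11.83 in the mutant without ethanol, and 11.35 to 11.42 and 10.998 to 11.10 in the ethanol medium. The 4 of 4 markers of alpha cells were above that percentile as well, with array means of 8.26 to 8.71. The part of RNA quality or of cell type in the differences below was not tested.

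In the ethanol medium the route split in the same way in both strains. The 4 genes of the shared route, the leucine genes LEU9 and LEU1, and BAT1 read lower, LEU4 stayed near its level, and LEU2 and BAT2 read higher. A gene is called where limma's p, after Benjamini-Hochberg adjustment across all genes, is under 0.05. By that mark 2 of the 10 genes were higher and 7 lower in the wild type, and the same genes in the mutant. These counts describe the contrast the choice rests on and test nothing. Of all genes, 31.7% were called higher and 29% lower in the wild type (60.8% in all), and 33.8% and 28.7% in the mutant (62.5% in all). The arrays of the media did not overlap for 2 of the 10 genes higher and 7 lower in the wild type. Of all genes, 34.3% and 32.5% were apart in this way. In the mutant 2 were higher and 8 lower without overlap, against 40.8% and 35.8% of all genes. The median log2 change of the 10 genes was -0.45 for wild type cells and -0.36 for mutant cells, against 0.01 and 0.02 over all genes. Without regard to sign, it was 0.66 and 0.56, against 0.19 and 0.21. LEU1 and LEU2 were at least 2-fold apart between the media in each strain, as were 3.93% and 3.16% of all genes.

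**Figure D1:**
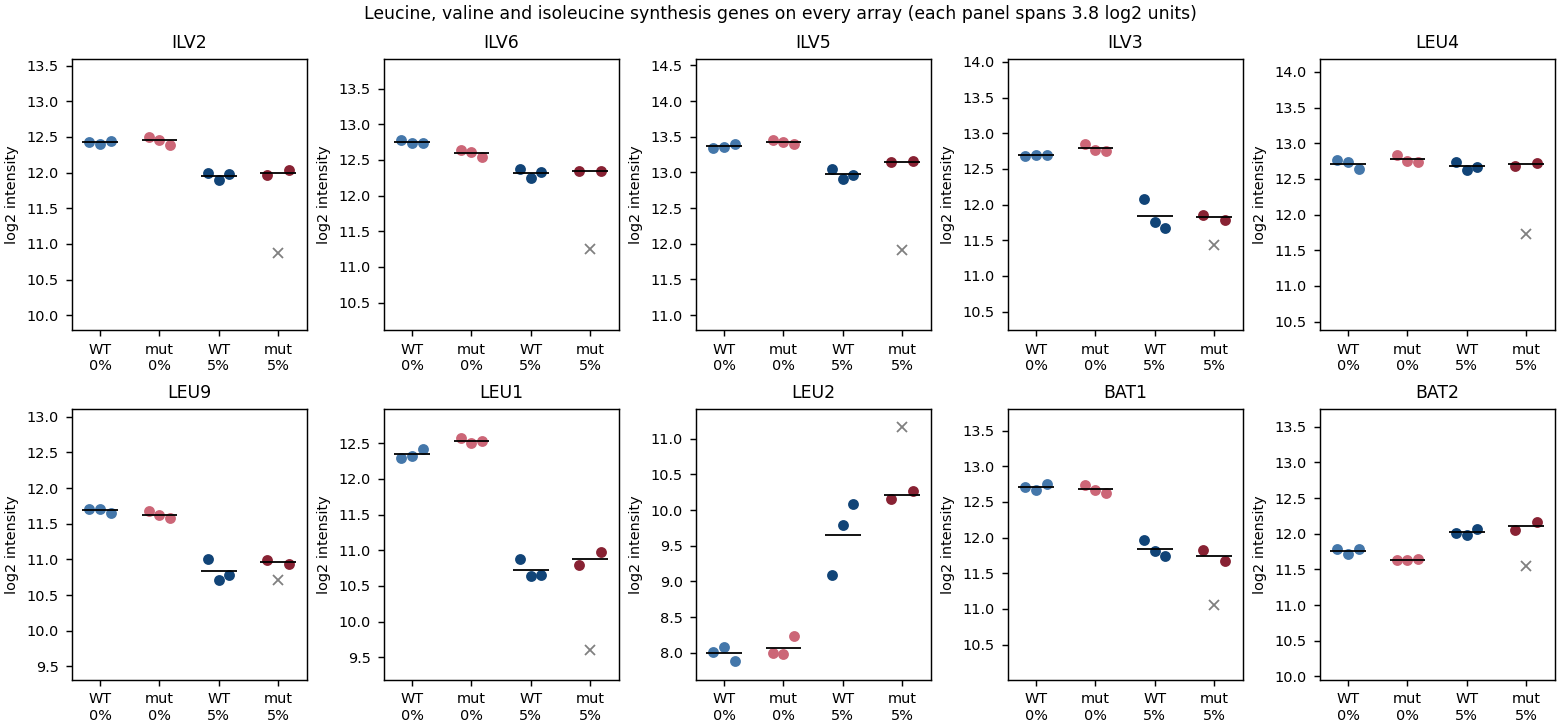
Log2 intensity of the 10 genes on every array, a panel per gene, by strain (WT, wild type; mut, mutant) and percent ethanol. Points are arrays, lines are means of the arrays used, and crosses are the array titled an outlier, which is not in the means. On the arrays used, every gene but LEU4 lies apart between the media in both strains. LEU2 goes from between 7.88 and 8.23 to between 9.09 and 10.26, and LEU4 overlaps between the media in the wild type.

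ILV2, the catalytic subunit of acetolactate synthase, read 12.43, 12.40 and 12.44 in the wild type and 12.50, 12.46 and 12.39 in the mutant without ethanol. In the ethanol medium it read 11.99, 11.89 and 11.98 in the wild type and 11.97 and 12.03 in the mutant. Every array with ethanol was below every array without, and the log2 difference was -0.47 (SE 0.042) in the wild type and -0.45 (SE 0.047) in the mutant. ILV6, the regulatory subunit that makes the enzyme sensitive to valine, read 12.78, 12.74 and 12.74 in the wild type and 12.64, 12.60 and 12.54 in the mutant without ethanol. With ethanol it read 12.37, 12.25 and 12.33, and 12.35 and 12.34. Again no array of one medium reached the range of the other. The log2 difference was -0.44 (SE 0.040) in the wild type and -0.25 (SE 0.045) in the mutant, whose arrays without ethanol were already lower.

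ILV5, which besides its reductoisomerase activity helps to keep mitochondrial DNA, read 13.35, 13.36 and 13.40 in the wild type and 13.46, 13.42 and 13.39 in the mutant without ethanol. In the ethanol medium it gave 13.05, 12.91 and 12.97 in the wild type and 13.14 and 13.16 in the mutant, below all arrays without. The log2 differences were -0.39 (SE 0.040) and -0.27 (SE 0.045). ILV3, the iron-sulfur dehydratase, had the widest drop of the shared route. It read 12.68, 12.69 and 12.70 in the wild type and 12.84, 12.76 and 12.76 in the mutant without ethanol, and 12.08, 11.75 and 11.67 and then 11.85 and 11.79 with it. The media did not overlap, and the log2 difference was -0.85 (SE 0.087) in the wild type and -0.97 (SE 0.097) in the mutant, a 1.80-fold and 1.95-fold lower intensity.

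The isopropylmalate synthases differed from each other. LEU4, which encodes the main and leucine-inhibited enzyme, read 12.77, 12.74 and 12.63 in the wild type and 12.83, 12.75 and 12.74 in the mutant without ethanol. With ethanol it read 12.74, 12.63 and 12.67 in the wild type and 12.68 and 12.73 in the mutant. The media overlapped in the wild type, while both mutant arrays with ethanol lay just below the 3 without. Its log2 difference was -0.03 (SE 0.047) in the wild type and -0.07 (SE 0.053) in the mutant, not called in either. LEU9, its paralog, read 11.71, 11.70 and 11.65 in the wild type and 11.68, 11.62 and 11.58 in the mutant without ethanol. With ethanol it read 11.01, 10.72 and 10.78, and 10.999 and 10.94, well apart from the arrays without. The log2 differences of LEU9 were -0.85 (SE 0.068) and -0.66 (SE 0.077).

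LEU1, the iron-sulfur isomerase and a known target of Leu3, had the largest drop of the 10 genes. It read 12.30, 12.32 and 12.42 in the wild type and 12.57, 12.51 and 12.53 in the mutant without ethanol. In the ethanol medium it gave 10.87, 10.64 and 10.66 in the wild type and 10.79 and 10.98 in the mutant. The media were separated by more than a log2 unit. In log2 it differed by -1.63 (SE 0.070) in the wild type, a 3.08-fold lower intensity, and -1.65 (SE 0.079) in the mutant, 3.14-fold lower. In each strain it ranked 7 from the lowest of the 5449 log2 changes.

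The transaminases went opposite ways. BAT1, the mitochondrial form used in synthesis, read 12.71, 12.67 and 12.76 in the wild type and 12.74, 12.67 and 12.63 in the mutant without ethanol, and 11.97, 11.81 and 11.74 and then 11.83 and 11.67 with it. Every array with ethanol was lower, by a log2 difference of -0.87 (SE 0.065) in the wild type and -0.93 (SE 0.073) in the mutant. BAT2, the cytosolic form linked to breakdown, read 11.79, 11.71 and 11.78 in the wild type and 11.63, 11.63 and 11.65 in the mutant without ethanol, and 12.01, 11.98 and 12.07 and then 12.05 and 12.16 with it. Every array with ethanol was higher. Its log2 difference was 0.26 (SE 0.041) in the wild type and 0.47 (SE 0.046) in the mutant.

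**Figure D2:**
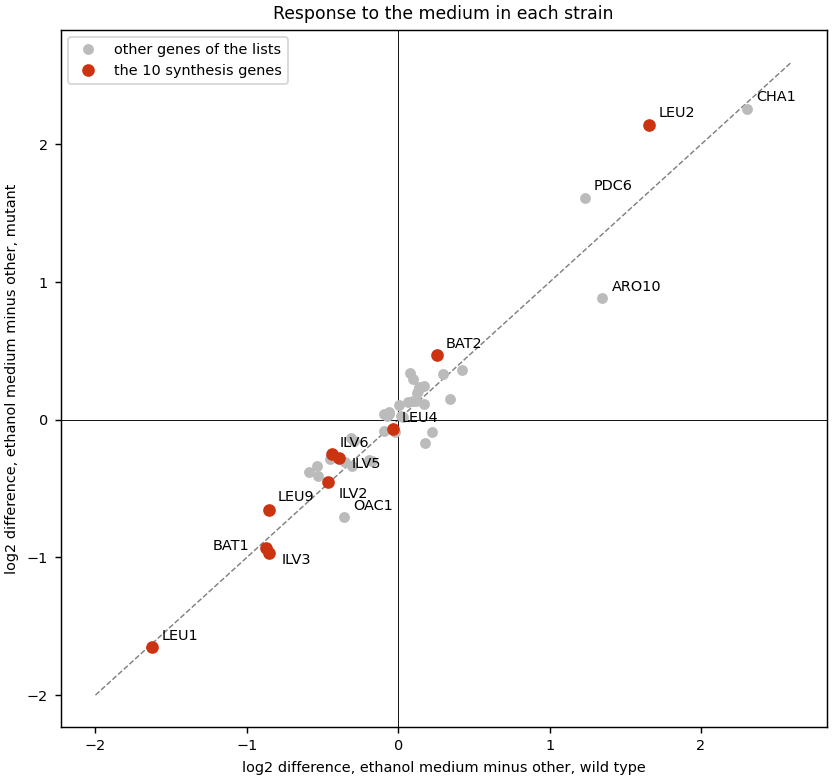
Log2 difference between the ethanol medium and the other in the wild type (horizontal) and in the mutant (vertical), for the 10 genes and the other genes of the lists described here. The dashed line marks equal differences in both strains. LEU1 lies at -1.63 and -1.65, LEU2 at 1.66 and 2.14, and LEU4 near 0 in both.

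The LEU2 probe set read 8.01, 8.09 and 7.88 in the wild type and 7.999, 7.98 and 8.23 in the mutant without ethanol. In the ethanol medium it read 9.09, 9.79 and 10.09 in the wild type and 10.16 and 10.26 in the mutant. All 5 arrays with ethanol were above all 6 without, and the 2 mutant arrays with ethanol were above the 3 wild type ones. The log2 difference was 1.66 (SE 0.204) in the wild type, a 3.16-fold higher intensity, and 2.14 (SE 0.228) in the mutant, 4.42-fold higher. It ranked 43 from the highest of all genes in the wild type, and 20 from the highest for mutant cells. Leaving out each array in turn gave 1.44 (without wild type replicate 3 of the ethanol medium) to 1.94 (without its replicate 1) in the wild type and 2.09 to 2.22 in the mutant.

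The LEU2 allele of BY4741 is a designed deletion of the gene, and whether the probe set reads a LEU2 transcript was not tested. Its signal without ethanol was 0.665 to 0.988 log2 units above the 95th percentile of the S. pombe probe sets of the same array. Between 98.1% and 98.6% of those probe sets read lower than it. With ethanol it was 1.73, 2.67 and 2.92 above that percentile in the wild type and 2.80 and 3.13 in the mutant. The S. pombe probe sets themselves had a median log2 difference of 0.022 between the media for wild type cells and of -0.017 for mutant cells. Of the 1746, 4 read at least 2-fold higher with ethanol in the wild type and 3 did so in mutant cells, and a difference as high as that of LEU2 was found for 1 and 0 of them. In the wild type, 417 yeast genes, LEU2 itself included, had a mean without ethanol at or below that of LEU2. Of these, 69, again with LEU2 included, read at least 2-fold higher with ethanol, and 18 differed by more than LEU2. In the mutant these counts were 50 and 8 of 431, LEU2 again included in the 50 and the 431.

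The other marker genes of the strain did not share the pattern. MET17, an enzyme of sulfur amino acid synthesis, had means of 7.82 without and 7.90 with ethanol in the wild type. In the mutant they were 7.68 and 7.84, and MET17 was not called in any comparison. HIS3, a histidine synthesis enzyme, read lower with ethanol by a log2 difference of -0.32 (wild type) and -0.50 (mutant). URA3, which the plasmid carries, differed by -0.27 and -0.18.

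**Figure D3:**
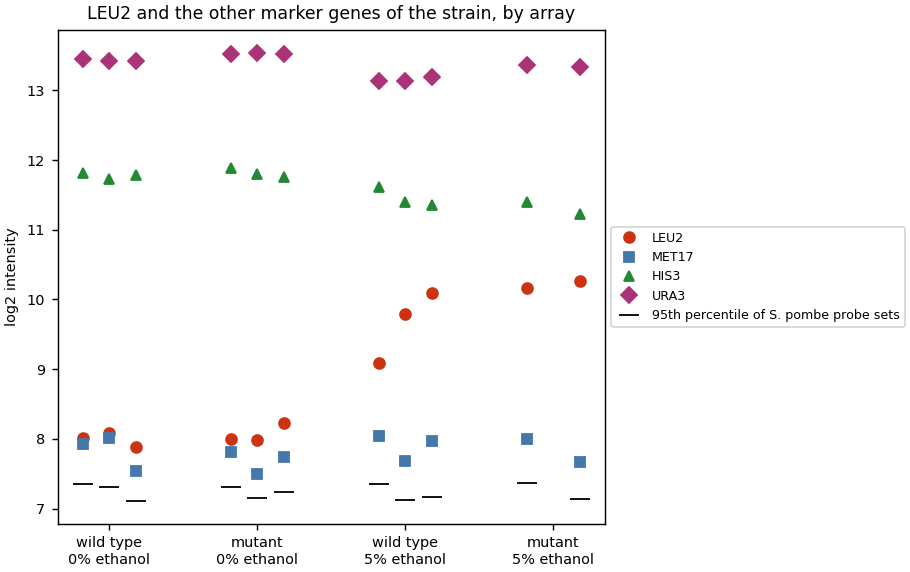
Log2 intensity of LEU2, MET17, HIS3 and URA3 on the 11 arrays used, by group, with the 95th percentile of the S. pombe probe sets of each array as a short line. LEU2 lies between 7.88 and 8.23 without ethanol and between 9.09 and 10.26 with it. HIS3 and URA3 read lower with ethanol, and the group means of MET17 lie between 7.68 and 7.90. Levels of different probe sets are not comparable with each other.

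The 3 annotated genes on one side of LEU2, YCL020W, YCL019W and SUP53, were not analysed here. On the other side NFS1, the cysteine desulfurase of iron-sulfur assembly, had a log2 medium difference of -0.14 (wild type) and 0.11 (mutant). DCC1, a subunit of a clamp loader, differed by 0.21 and 0.23, and BUD3, a bud site gene, by -0.00 and 0.21. None of these 3 neighbours had a difference near that of LEU2.

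The spread of LEU2 among the wild type cultures with ethanol was large. Its SD there was 0.515, rank 4 from the highest of all 5449 genes, whose median SD in that group was 0.077. ILV3 followed among the 10 genes with an SD of 0.215. Replicate 1 of that group lay nearest to the mean of the wild type without ethanol for 9 of the 10 genes, the exception being BAT2. It was also the nearest of the 3 arrays for 51.2% of all genes and for 57.9% of the 3312 genes called between the media. Without it, the ILV3 log2 difference in the wild type was -0.97 and that of LEU2 was 1.94.

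Over the 11 arrays, the genes most like LEU2 by Pearson's r were YPL278C at 0.991, measured by a probe set marked as shared, FRE2, a ferric reductase, at 0.991, NSG2 at 0.990, YOR389W at 0.987 and RIM8 at 0.986. Among the 10 genes, BAT2 had an r of 0.928 with LEU2, rank 472 of 5448 from the highest. BAT1 had -0.983, rank 15 from the lowest, and ILV3 had -0.975, rank 62 from the lowest. LEU9, LEU1, ILV2, ILV6 and ILV5 had r between -0.943 and -0.853. LEU4 had -0.465. ILV2 and LEU1 correlated with each other at 0.991 and ILV3 and BAT1 at 0.987. These coefficients are a description over the arrays used, which fall into groups by medium.

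The comparison of the mutant with the wild type in each medium asks whether the changed TATA-binding protein moved these genes, and it was not used to choose them. The strains differed little in the 10 genes. Without ethanol 1 of 10 was called, ILV6, which was lower in the mutant, against 16.3% of all genes called and 8.07% called lower. With ethanol 1 of 10 was called, ILV5, which was higher in the mutant, against 11.7% of all genes called and 5.73% called higher. Both shares are near those of all genes. Without ethanol the arrays of the strains did not overlap for 2 genes higher and 2 lower in the mutant, against 15.9% and 26.7% of all genes. With ethanol they did not overlap for 2 higher and 0 lower, against 18.5% and 21.5% of all genes. A lack of overlap, given for single genes below, is thus common among all genes. The median log2 difference of the 10 genes was 0.04 without and 0.07 with ethanol, against -0.03 and -0.01 over all genes.

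Without ethanol ILV6 was 12.75 ± 0.022 (SD, n = 3) for the wild type and 12.59 ± 0.048 (n = 3) for the mutant, with no overlap. The log2 difference was -0.16 (SE 0.040, 95% interval -0.25 to -0.07, limma adjusted p = 0.0256). With ethanol the strains read 12.31 ± 0.062 (n = 3) and 12.34 ± 0.004 (n = 2) and differed by 0.03 (adjusted p = 0.692). The call without ethanol was lost when wild type replicate 1, 2 or 3 without ethanol was left out (adjusted p = 0.1003, 0.0733 and 0.0520) and when mutant replicate 2 or 3 there was left out (0.0748 and 0.101), and adjusted p over all alternatives ranged from 0.0126 to 1.00.

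With ethanol ILV5 was 12.98 ± 0.068 (n = 3) for the wild type and 13.15 ± 0.011 (n = 2) for the mutant, with no overlap. The log2 difference was 0.18 (SE 0.045, 95% interval 0.07 to 0.28, limma adjusted p = 0.0365), against 0.06 (adjusted p = 0.403) without ethanol. The call was lost in a fit of only these groups (adjusted p = 0.238) and without any of 7 arrays: wild type replicates 1 and 2 and mutant replicates 2 and 3 without ethanol (0.0583, 0.0625, 0.0644 and 0.0547), and wild type replicate 2 and mutant replicates 1 and 3 with ethanol (0.101, 0.0848 and 0.174). With the array titled an outlier included, the difference was -0.24.

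Of the genes not called, LEU1 without ethanol was 12.35 ± 0.062 for the wild type and 12.54 ± 0.035 for the mutant (n = 3 each). Its arrays did not overlap and its log2 difference was 0.19 (95% interval 0.03 to 0.35, limma adjusted p = 0.102). It was called in a fit of only these groups (0.0212) and without wild type replicate 1 of the ethanol medium (0.0450). BAT2 differed by -0.12 (SE 0.041, 95% interval -0.22 to -0.03, adjusted p = 0.0676) without ethanol, again with no overlap. It was called in a fit of only these groups (0.0359) and without mutant replicate 1 or 3 of the ethanol medium (0.0481 each). With ethanol LEU1 differed by 0.16 (adjusted p = 0.190) and BAT2 by 0.09 (adjusted p = 0.214).

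LEU2 without ethanol was 7.995 ± 0.103 for the wild type and 8.07 ± 0.139 for the mutant (n = 3 each), a log2 difference of 0.07 with a 95% interval of -0.38 to 0.53 (limma adjusted p = 0.859). With ethanol it was 9.66 ± 0.515 (n = 3) and 10.21 ± 0.072 (n = 2), without overlap. The difference of 0.56 (SE 0.228, 95% interval 0.05 to 1.07) did not pass the test (adjusted p = 0.129). It was 0.27 without wild type replicate 1 of that medium, 0.78 without wild type replicate 3 (adjusted p = 0.0213, called), and not called in the other alternatives that kept it.

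For the remaining genes the log2 strain differences were small. ILV2 differed by 0.03 and 0.04 without and with ethanol (limma adjusted p = 0.705 and 0.549), ILV3 by 0.10 and -0.02 (0.500 and 0.927), and LEU4 by 0.06 and 0.03 (0.455 and 0.752). BAT1 differed by -0.03 and -0.09 (0.780 and 0.389). LEU9 differed by -0.06 and 0.13 (0.599 and 0.257), and it was called with ethanol only without wild type replicate 1 there (0.22, adjusted p = 0.0397).

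**Figure D4:**
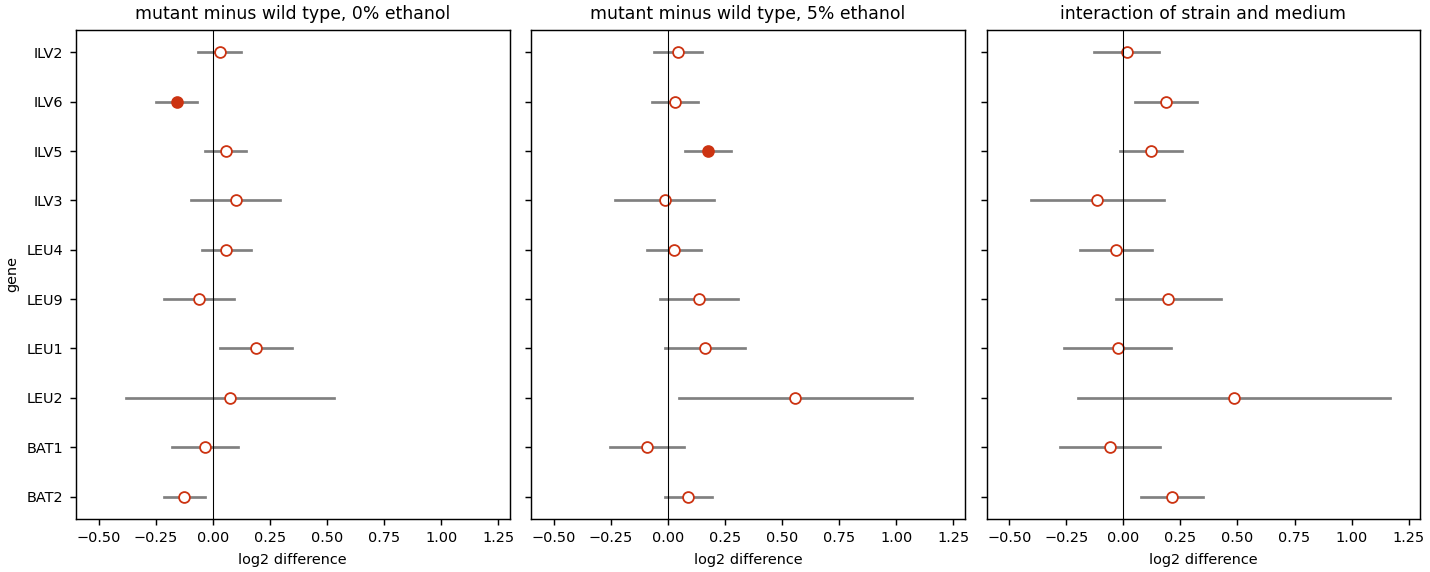
Log2 difference between mutant and wild type without and with ethanol, and the interaction (medium response of the mutant less the wild type's), for the 10 genes with 95% intervals from limma. Filled points passed an adjusted p under 0.05. ILV6 without ethanol (-0.16) and ILV5 with ethanol (0.18) are filled, and no interaction is.

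The interaction asks whether the medium response differed between the strains. None of the 10 genes was called by limma, against 1.21% of all genes. At an unadjusted p under 0.05 there were 2 of the 10 genes, ILV6 and BAT2, against 19.9% of all genes. The interaction was 0.19 for ILV6 (95% interval 0.05 to 0.32, adjusted p = 0.153) and 0.21 for BAT2 (0.08 to 0.35, adjusted p = 0.123). BAT2 was called without wild type replicate 3 of the ethanol medium (0.24, adjusted p = 0.0483). For LEU2 it was 0.48 with an interval of -0.20 to 1.17 (adjusted p = 0.401), between 0.20 and 0.70 as arrays were left out. ILV5 had 0.12 (adjusted p = 0.303) and LEU9 had 0.20 (adjusted p = 0.322). For the other 5 genes it lay between -0.11 (ILV3) and 0.01 (ILV2).

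Genes that regulate the route, feed it, move its products or use them were taken from lists, every gene of which was measured. With the array titled an outlier included, each strain call named from these lists was lost, as was the ARO10 interaction. Without ethanol, adjusted p was then 0.312 for OAC1, 0.561 for AGP1, 0.619 for ARO10, 0.882 for CHA1 and 1.00 for TAT1 and GNP1 (limma). Of the 5 regulators, LEU3 and GCN4 were not called in any comparison. LEU3 had log2 strain differences of 0.01 and 0.03 and medium differences of -0.09 and -0.08, and GCN4 had 0.08 and 0.07, and 0.03 and 0.02. GLN3, a nitrogen activator, was called lower in the mutant without ethanol (-0.23, limma adjusted p = 0.0237), a call lost without wild type replicate 1 or 2 or mutant replicate 1 or 3 there (0.0628 to 0.0974). GAT1, a related activator, was called higher in the mutant with ethanol (0.28, adjusted p = 0.0287), a call lost in a fit of only these groups (0.171) and without wild type replicate 2 without ethanol or wild type replicate 1 or 2 or mutant replicate 3 with it (0.0511 to 0.186).

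Of the 7 genes that make isoleucine's precursor, 2 were called higher and 4 lower with ethanol in the wild type (60.8% of all genes called), and 2 higher and 5 lower in the mutant (62.5%). ILV1, the threonine deaminase that opens the isoleucine route, read lower by -0.31 and -0.34 in log2. CHA1, the catabolic serine and threonine deaminase, read 8.39, 8.29 and 8.45 in the wild type and 9.04, 9.01 and 8.92 in the mutant without ethanol. With ethanol it read 10.78, 10.56 and 10.69 in the wild type and 11.32 and 11.18 in the mutant. It was higher with ethanol by 2.31 and 2.26 in log2 and higher in the mutant in both media. The strain difference was 0.62 (SE 0.066, limma adjusted p = 0.000295) without ethanol and 0.57 (SE 0.074, adjusted p = 0.00361) with it, the second lost in a fit of only these groups (0.120). HOM3, the aspartate kinase, was called higher in the mutant without ethanol (0.20, adjusted p = 0.0305), a call lost without any of wild type replicates 1, 2 and 3 or mutant replicates 1 and 2 there (0.0599 to 0.0994).

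OAC1 encodes a mitochondrial carrier that exports isopropylmalate and is, like LEU1, a known target of Leu3. It read 11.14, 11.05 and 11.13 in the wild type and 11.82, 11.60 and 11.55 in the mutant without ethanol, with no overlap. The log2 difference was 0.55 (95% interval 0.32 to 0.77, limma adjusted p = 0.00572), and 0.20 (adjusted p = 0.256) with ethanol. OAC1 read lower with ethanol by -0.35 and -0.71. It was the only gene of the 5 in its list of carriers and linked enzymes to be called between the strains. Of all genes, 16.3% were called without ethanol and 11.7% with it. PAN6 of pantothenate synthesis read lower with ethanol by -0.45 and -0.28.

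Of the 10 genes for amino acid permeases and their sensor, 5 were called between the strains without ethanol (16.3% of all genes) and none with it (11.7% of all genes). AGP1, a broad permease, was higher in the mutant by 0.45 (SE 0.058, limma adjusted p = 0.000895). TAT1, which takes up branched-chain and aromatic amino acids, was higher by 0.30 (SE 0.051, adjusted p = 0.00388), and GNP1, a glutamine permease, by 0.22 (SE 0.048, adjusted p = 0.0137). BAP3, a branched-chain permease, was called higher (0.17, adjusted p = 0.0431) and PTR3 of the sensor lower (-0.27, adjusted p = 0.0240). The BAP3 call was lost in 11 of 18 alternatives, 8 of them with an array left out (every array except wild type replicate 1 without ethanol and wild type replicates 2 and 3 with it). The PTR3 call was lost without wild type replicate 1 or 2 or any mutant array without ethanol (0.0554 to 0.0920). With ethanol, 5 of the 10 were called higher and 1 lower in the wild type (31.7% and 29% of all genes), and 6 and 1 in the mutant (33.8% and 28.7%).

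ARO10, a keto acid decarboxylase of the route from amino acids to fusel alcohols, read 10.93, 10.96 and 10.90 in the wild type and 11.76, 11.73 and 11.74 in the mutant without ethanol. In the ethanol medium the values were 12.30, 12.25 and 12.28, and 12.53 and 12.72. The groups did not overlap. It was higher in the mutant by 0.82 (SE 0.046, limma adjusted p = 6.99e-06) without ethanol and by 0.35 (SE 0.052, adjusted p = 0.00567) with it, the second lost in a fit of only these groups (0.157). Its interaction was -0.46 (SE 0.069, adjusted p = 0.0172), a call lost without wild type replicate 1 (0.0587) or mutant replicate 2 or 3 (0.0574 and 0.0502) without ethanol. Of the 7 genes of this breakdown list, 3 were called higher with ethanol in the wild type (31.7% of all genes) and 6 for mutant cells (33.8%), and none lower (29% and 28.7%). PDC6, a minor pyruvate decarboxylase, read higher by 1.23 and 1.61, and its strain difference with ethanol (0.30, adjusted p = 0.0336) was lost in 10 of 18 alternatives, 7 of them with an array left out: wild type replicates 1 and 2 and mutant replicate 2 without ethanol, and wild type replicates 1 and 2 and mutant replicates 1 and 3 with it.

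The 4 genes that charge transfer RNAs with these amino acids were called lower with ethanol in the wild type, 4 of 4 (29% of all genes), and 2 of 4 in the mutant (28.7%). None was called between the strains, against 16.3% of all genes without ethanol and 11.7% with it. ILS1, for isoleucine, read lower by -0.59 and -0.38, and VAS1, for valine, by -0.53 and -0.41. CDC60 and NAM2, the cytosolic and mitochondrial enzymes for leucine, differed by -0.29 and -0.15, and by -0.31 and -0.13. Of the strain's markers, URA3 was called higher in the mutant with ethanol (0.19, limma adjusted p = 0.0130), a call lost in a fit of only these groups (0.209) and without mutant replicate 1 or 3 there (0.0516 and 0.0617).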

How the data were processed

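Total RNA was labelled with biotin and hybridised to 12 Affymetrix Yeast Genome 2.0 arrays, 1 per culture. The authors deposited 1 intensity per probe set and array, made with RMA per the submitters' processing notes. The version and settings of RMA are not given in sources used here. Deposited values run from 6.16 to 22228.3 on a linear scale, so log2 was taken with no pseudocount, and RMA's quantile alignment limits what can be said of shifts common to all genes. Of 10928 probe sets, 7245 were annotated, 5498 with single S. cerevisiae genes (RefSeq, R64, 12 symbols updated) and 1 with several, and 1746 were taken as S. pombe. For 47 genes with several probe sets the brightest was used, which left 5449 genes.

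A model with a mean per group was fitted to the 11 arrays with limma 3.58.1 in R 4.3.3 (lmFit, eBayes, with 7 residual and 2.73 prior degrees of freedom). Adjusted p-values are limma's, Benjamini-Hochberg over all 5449 genes, called under 0.05. The fit was tested on simulated data. The series' design names biological replicates. Each p-value sets a difference against the spread between these cultures, estimated over all groups together. Arrays have no depth to give. The number of arrays, only 2 for the mutant with ethanol, limits the precision.

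The 10 genes and the gene lists were chosen with earlier results of these data known. All 10 are named. LEU3, GCN4, ILV1, OAC1 and the strain markers are always named, other list genes where called between strains or in the interaction, or else up to 4 of a list by their medium response. The 5 genes most like LEU2 and its annotated neighbours complete the rule. Promoter and protein sequences were not analysed here.

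Alternatives were all 12 arrays, the replicate number as a block, aligned array medians, repeated quantile normalization, a filter on the lowest 25% of genes, fits of only the groups compared, eBayes with trend and robust fitting, and leaving out each array.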

Additional observations from a re-analysis of the deposited data

Results flagged for a closer look

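The array titled an outlier, mutant replicate 2 in the ethanol medium, was left out of the reported fits and used only in the alternative with all 12 arrays. LEU2 read 11.16 there, above every wild type array without ethanol (7.88 to 8.09) and above the other mutant arrays with ethanol (10.16 and 10.26). It is given here because it is a signal outside the reported fits with a higher intensity than in the control arrays. Against the S. pombe background of the same array it was not higher. The 95th percentile of the S. pombe probe sets was 10.78 there, and LEU2 was 0.377 above it, against 0.665 to 0.988 on the arrays without ethanol. By rank, LEU2 read above 82.1% of yeast genes on that array. The arrays without ethanol had it above 7.05% to 8.50%, and the other mutant arrays with ethanol above 38.9% and 43.1%. The other 9 genes lay below every wild type array without ethanol and below the other mutant arrays with ethanol.

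ARO10 differed between the strains in its medium response by the test of the difference itself, with an interaction of -0.46 on the log2 scale (limma adjusted p = 0.0172), from 1.35 in the wild type to 0.88 in the mutant. Its adjusted p over the alternatives ranged from 0.0026 to 0.685.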

How the results depend on the processing

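Between the media, a contrast the choice of genes rests on, 9 of 10 were past the threshold in each strain with any array left out and in the other alternatives, except all 12 arrays (5 in each strain: ILV3, LEU9, LEU1, LEU2 and BAT1) and the filter on dim genes, which removed LEU2 and left 8. Between the strains without ethanol, 1 gene was called in the reported fit, 0 with all 12 arrays, 3 in a fit of only those groups and 0 to 2 with an array left out. With ethanol, 1 was called, 0 with all 12 arrays, 0 in a fit of only those groups and 0 to 2 with an array left out. The interaction gave 0 and, with an array left out, 0 to 1. Where a mutant array with ethanol was left out, the remaining one was assumed to vary like the other groups.

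With the replicate number as a block, 2 genes were called without ethanol (ILV6 and BAT2, the latter at limma's adjusted p = 0.0444) and 0 with it (ILV5 at 0.0592). BAP3 was then at 0.0527, and no other strain or interaction call given for the genes named was lost. For the list genes, new calls and calls between the media were not looked at in this fit. The numbers were not shown to pair the cultures: of 15 same-numbered pairs, 11 had deviations correlated above 0.1, and the coefficients ran from -0.25 to 0.71. Pairs that include a wild type array without ethanol ran from -0.25 to 0.18, and all other pairs from 0.26 to 0.71.

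With all 12 arrays, 4 of the strain differences given above as called with ethanol reversed. They went to -0.24 for ILV5, -0.25 for GAT1, -0.023 for ARO10 and -0.24 for URA3. Within the route, the uncalled strain differences of ILV2, ILV6, LEU4, LEU1 and BAT2 with ethanol also changed sign, from positive to negative. The medium differences in the mutant moved by at least the residual SD of the reported fit for 9 genes, all but LEU9. They were then -0.83 for ILV2, -0.62 for ILV6, -0.69 for ILV5 and -1.09 for ILV3. LEU4 was at -0.39, LEU1 at -2.08, LEU2 at 2.46, BAT1 at -1.16 and BAT2 at 0.28. Over all genes, 13 were called between strains without ethanol, 0 with it, 3 in the interaction, and 408 and 744 between the media, against 890, 638, 66, 3312 and 3404. In fits of only the groups compared 1233 and 6 were called between strains. With an array left out, these counts ran from 454 to 974, from 72 to 1326, and from 16 to 448 for the interaction. The cause was not tested. RMA values allow no other background correction, and slide or scan date was not used here.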
